A study of Mus musculus with 4 samples.

Results

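The collagen, laminin and integrin genes encode the main structural proteins of the extracellular matrix and the receptors by which a cell holds on to it. They were compared between mouse embryonic stem cells (ESCs) grown with serum and ESCs grown in 2i. Members were protein-coding genes whose symbol is that of a collagen chain (Col, a number, a and a number), a laminin chain (Lama, Lamb or Lamc and a number) or an integrin chain (Itga or Itgb and a number, or v, e, l, m or x). Of the 14533 genes in the deposited table, 46 were members: 20 collagen, 9 laminin and 17 integrin genes. The annotation holds 78 such genes, and the other 32 were not analysed here, among them Col1a2, Col3a1, Col6a1, Col6a2, Lama2, Itga2 and Itgb2.

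Total RNA was sequenced from 2 libraries of serum ESCs and 2 libraries of 2i ESCs, all adapted to their medium for over 20 days. The serum medium held fetal calf serum and the cytokine LIF. The 2i medium was serum-free and held LIF with 2 kinase inhibitors, PD0325901 against MEK and CHIR99021 against GSK3. Per the sample labels all cells were sorted in late G1-phase, the stretch of the cell cycle before DNA synthesis, while the series text speaks of early G1-phase. The labels name no cell line and no genetic change for these libraries. Serum and the inhibitors changed together between the groups, so their parts cannot be told apart.

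A basement membrane is a thin sheet of matrix under or around cells. Laminins are trimers of an alpha, a beta and a gamma chain that assemble on the cell surface, and type IV collagen forms a network that is linked to them by nidogens and perlecan. Integrins are pairs of an alpha and a beta chain that bind laminins, collagens or proteins with the RGD motif, such as fibronectin and vitronectin, and connect them to actin. In the early embryo laminin-111 (Lama1, Lamb1, Lamc1) and laminin-511 (Lama5, Lamb1, Lamc1) are the main laminins around the epiblast, and integrin alpha 6 beta 1 is a receptor for both. Fibrillar collagens are typical of connective tissue.

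Promoter windows of 300 bases are given for the members on which the results turn, with the sequence of build NCBIM37 (mm9) and starts of GENCODE vM1. Col4a1 and Col4a2, the chains of the common type IV collagen, start head to head, and their annotated transcripts share 22 bases on opposite strands. The first window, chr8:11312666-11312965 on the plus strand, is centred on both starts, with that of Col4a2 at base 140 and that of Col4a1 at base 161, and has 74% GC. The other windows run from 250 bases before to 50 bases from the start and belong to 2 genes with higher levels in serum ESCs, Col18a1 (chr10:76629244-76629543, minus strand) and Itga9 (chr9:118515558-118515857, plus strand), and to a gene with lower levels, Col17a1 (chr19:47766535-47766834, minus strand). Capitals mark the GC box GGGCGG, the CCAAT box CCAAT and the TATA box TATAAA, each searched on both strands, so that a box on the other strand is shown as its reverse complement, and no boxes overlap here.
Col4a1 and Col4a2: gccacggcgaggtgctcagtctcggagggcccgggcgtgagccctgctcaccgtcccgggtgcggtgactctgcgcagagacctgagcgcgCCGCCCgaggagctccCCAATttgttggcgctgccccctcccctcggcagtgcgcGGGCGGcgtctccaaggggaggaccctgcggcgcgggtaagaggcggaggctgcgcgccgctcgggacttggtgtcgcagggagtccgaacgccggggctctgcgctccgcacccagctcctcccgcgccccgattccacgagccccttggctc
Col18a1: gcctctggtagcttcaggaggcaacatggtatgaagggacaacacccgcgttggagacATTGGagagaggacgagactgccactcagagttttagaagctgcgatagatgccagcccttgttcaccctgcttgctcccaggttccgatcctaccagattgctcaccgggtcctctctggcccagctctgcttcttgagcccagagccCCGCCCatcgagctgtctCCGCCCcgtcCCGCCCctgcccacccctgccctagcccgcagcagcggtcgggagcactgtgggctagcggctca
Itga9: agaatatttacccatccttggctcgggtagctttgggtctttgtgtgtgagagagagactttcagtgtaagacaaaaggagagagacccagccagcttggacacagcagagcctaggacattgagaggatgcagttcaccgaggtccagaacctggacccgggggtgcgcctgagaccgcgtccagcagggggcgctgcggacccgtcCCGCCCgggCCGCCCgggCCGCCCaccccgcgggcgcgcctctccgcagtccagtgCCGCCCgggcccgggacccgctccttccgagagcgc
Col17a1: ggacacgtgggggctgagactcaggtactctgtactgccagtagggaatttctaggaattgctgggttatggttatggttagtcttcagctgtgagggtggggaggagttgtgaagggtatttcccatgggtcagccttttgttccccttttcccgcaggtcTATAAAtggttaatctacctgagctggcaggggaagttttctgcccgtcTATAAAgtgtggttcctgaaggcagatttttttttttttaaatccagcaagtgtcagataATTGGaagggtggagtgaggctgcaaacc
The shared type IV collagen window holds 2 GC boxes and 1 CCAAT box. The Col18a1 window holds 3 GC boxes and 1 CCAAT box, and the Itga9 window 4 GC boxes. The Col17a1 window holds no GC box, 2 TATA boxes and 1 CCAAT box. These matches describe the letters of each window and no binding.

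Among the windows from 250 bases before to 50 bases from the start of all 14461 genes with an annotated start, 57.3% held a GC box, 38.8% a CCAAT box and 8.56% a TATA box. Of the 46 members, 29 windows held a GC box, 14 a CCAAT box and 4 a TATA box. The CCAAT box was in 12 of the 20 collagen windows, in 1 of the 9 laminin windows and in 1 of the 17 integrin windows. The collagen windows had a median of 12 CpG dinucleotides against 18 over all genes, at a median GC content of 62.5% against 59%. The AP-1 letters TGANTCA were in no member window and in 5.05% of all windows, the TCF/LEF letters ATCAAAG in 2 collagen windows and in 2.74% of all, and the ETS letters CCGGAAG in 2 integrin windows and in 15.7% of all.

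The libraries held 18939401 to 26570098 whole reads in the table, of which the 46 members took 0.0755% to 0.167%. The share of reads in protein-coding genes was 46.9% and 76.3% for serum ESCs (replicates 1 and 2, as in all pairs of values below) against 57.8% and 66.3% for 2i ESCs, so that libraries of a group differed more than the groups did. The replicates themselves were far apart: they differed at least 2-fold at 27.5% of all genes in serum ESCs and at 40.6% in 2i ESCs, and at 19 and 23 of the 46 members. Levels below are normalized counts, which are gene counts divided by the library's size factor. All 10 markers of ESCs were detected in every library, with Pou5f1 between 8452 and 20050.3 and Nanog between 9449 and 13612 normalized counts, so the markers of the labelled cell type were present. Fewer cells with a transcript and less of it per cell cannot be told apart in such bulk samples.

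None of the 46 genes passed the test for a difference between serum and 2i ESCs. A limma call asked for a 2-fold change and for an adjusted p-value under 0.05, and by it 0 members were called higher in serum ESCs against 0% of all genes, and 0 were called higher in 2i ESCs against 0.0138% of all genes. At an unadjusted p-value under 0.05, 3 members were higher in serum ESCs against 2.76% of all genes, namely Col18a1, Col6a5 and Itga9, and 2 were higher in 2i ESCs against 3.20% of all genes, namely Col17a1 and Col9a2. The smallest adjusted p-value of a member in the limma fit was 0.761. On the whole reads, edgeR called 0 members in either direction, as it called 0% of all genes, and 3 and 1 members at an unadjusted p-value under 0.05 with a 2-fold change against 2.24% and 3.85% of all genes. DESeq2 called 1 member, Col6a5, higher in serum ESCs against 0.456% of all genes, and 0 members higher in 2i ESCs against 1.23%. Col6a5 reaches the smallest total in the table, 51 reads, only with its serum reads, so the direction of this call is partly set beforehand.

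The levels leaned towards 2i ESCs in the collagens and to neither side clearly in the laminins and integrins. The collagen lean rests in part on 5 genes that reach the smallest total in the table, 51 reads, only with their 2i reads. The median log2 fold change (serum over 2i, on log2 of normalized counts + 1) was -0.73 over the 20 collagens, -0.31 over the 9 laminins and -0.28 over the 17 integrins, against -0.019 over all genes. A higher level in 2i ESCs was seen for 29 of the 46 members, against 50.8% of all genes, and a higher level in serum ESCs for 17, against 49.2%. Both serum values lay above both 2i values for 6 members against 19.5% of all genes, and below both for 13 members, of which 8 were collagens, against 20.1% of all genes. A 2-fold higher level in serum ESCs was seen for 7 members against 10.7% of all genes, and a 2-fold lower level for 11, of which 9 were collagens, against 17.8%. Of the collagens, 5 reach the smallest total in the table, 51 reads, only with their 2i reads and 1 only with its serum reads. The 5 are Col16a1, Col20a1, Col2a1, Col4a5 and Col5a2, and the 1 is Col6a5. Of the laminins and integrins, Lama4 and Itga7 reach it only with their 2i reads, and Lamb3, Itga8 and Itgam only with their serum reads. The direction of such low genes is partly set by their being in the table. For 34 of the 46 members the larger of the replicate gaps exceeded the difference between the groups. Of the 46 members, 33 had a mean of at least 50 normalized counts over the 4 libraries, and among these 3 lay wholly above and 9 wholly below, against 21.0% and 18.1% of all genes at that level. Without 2i replicate 1 the median was 0.0073 for the laminins and 0.22 for the integrins, so the direction of both rests on that library.

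**Figure D1:**
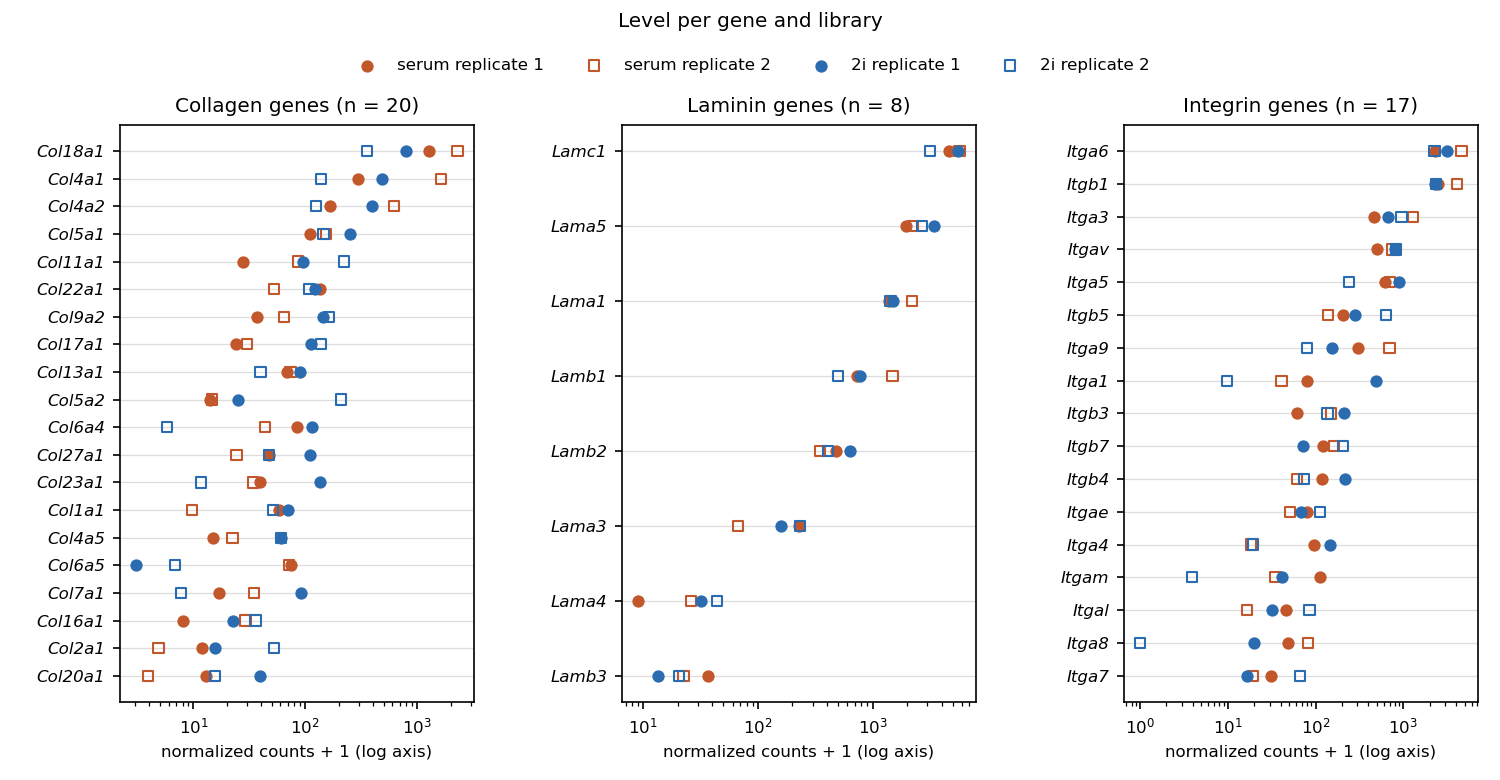
Level of 20 collagen, 8 laminin and 17 integrin genes in each library, as normalized counts + 1 on a log axis, with genes ordered by their mean. Filled circles are replicate 1 and open squares replicate 2 of serum ESCs (orange) and 2i ESCs (blue). Lamc1, Lama5, Lama1, Lamb1, Itga6 and Itgb1 lie at 500 or more in every library, and most collagens lie far lower with replicates far apart.

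**Figure D2:**
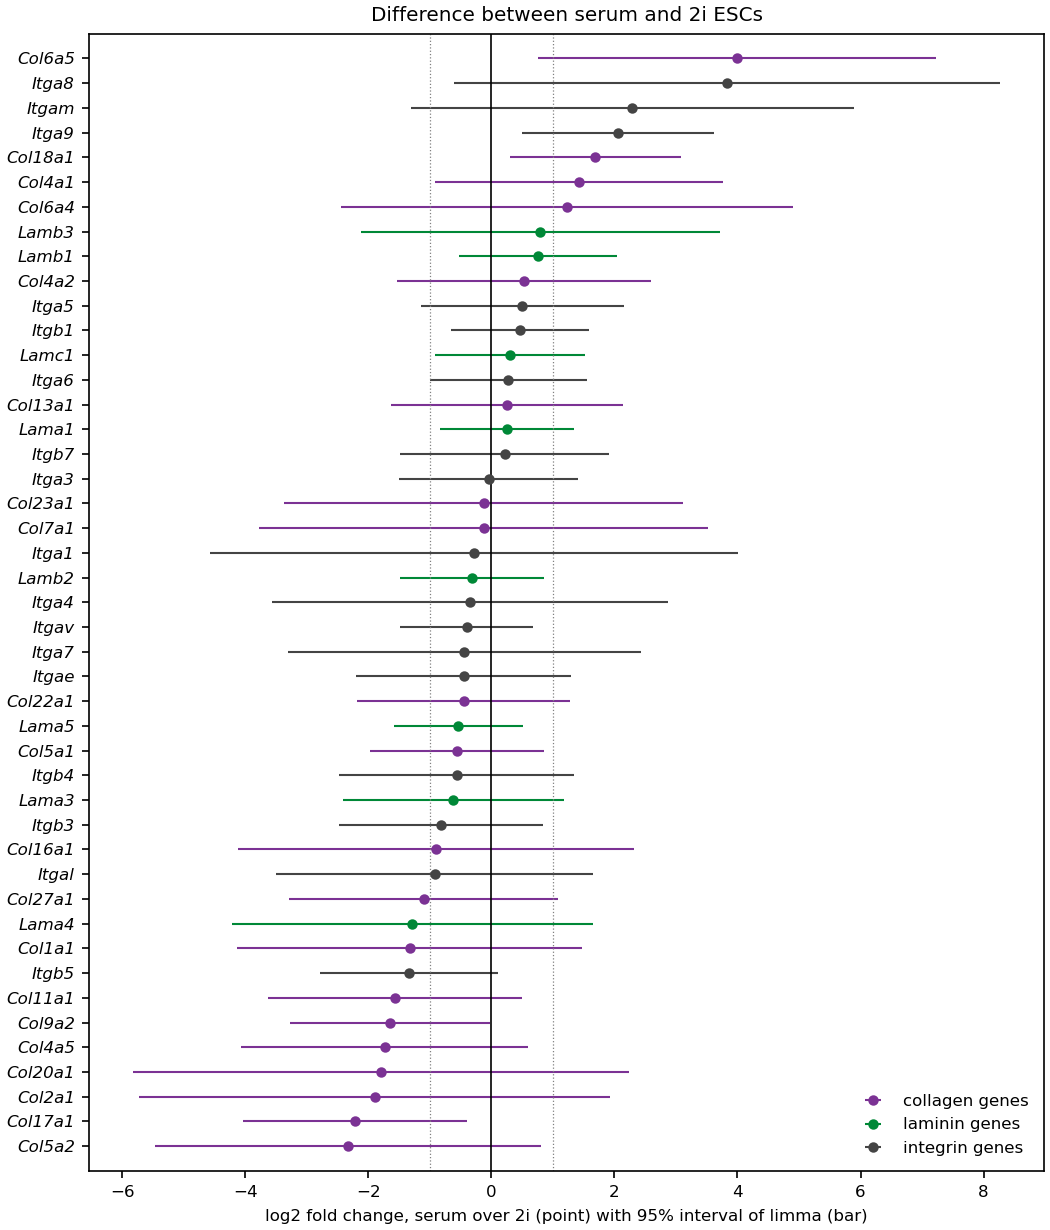
Log2 fold change of 45 of the 46 genes, serum over 2i, with the 95% interval from limma (n = 2 libraries per group); dotted lines mark a 2-fold change. Only the intervals of Col6a5, Itga9, Col18a1, Col17a1 and Col9a2 leave out 0, before adjustment for the 14533 genes tested.

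Among the collagens of basement membranes, Col18a1 was the most abundant and had the clearest difference. Col18a1 (ENSMUSG00000001435) encodes the chain of collagen XVIII, a basement membrane proteoglycan whose end is released as endostatin. Its level was 1283 and 2286 normalized counts in serum ESCs against 793 and 354 in 2i ESCs. Both serum libraries were above both 2i libraries, with a log2 fold change of 1.69 ± 0.57 (SE, n = 2 libraries per group) and an adjusted p-value of 0.761 with limma. Leaving out any one library kept the sign, with log2 fold changes between 1.11 and 2.27. Per kilobase of exon the gene took 50.9% and 42.5% of all collagen signal in serum ESCs against 23.9% and 17.5% in 2i ESCs.

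The 2 chains of the common type IV collagen ranked the 4 libraries in the same order. Col4a1 was at 297 and 1626 normalized counts in serum ESCs and at 488 and 137 in 2i ESCs. Col4a2 was at 164 and 622 in serum ESCs and at 391 and 124 in 2i ESCs. For both genes serum replicate 2 was the highest and 2i replicate 2 the lowest library, and the groups overlapped. The log2 fold change was 1.42 ± 0.96 for Col4a1 and 0.53 ± 0.85 for Col4a2 (SE). That of Col4a1 stayed positive without any one library, and that of Col4a2 turned negative without serum replicate 2 (-0.42) or without 2i replicate 2 (-0.29). The ratio of Col4a1 to Col4a2 per kilobase was 1.76 and 2.54 in serum ESCs and 1.21 and 1.07 in 2i ESCs, higher in both serum libraries. Both genes are read from the window printed above, and because the strand used in counting is not given in the sources used here, the 22 shared bases could be counted for either.

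Col4a5, a chain of the type IV network known from the filter of the kidney, went the other way. It was low, at 14.01 and 21.4 normalized counts in serum ESCs and at 60.2 and 60.1 in 2i ESCs, with a log2 fold change of -1.74 ± 0.96 (limma adjusted p = 0.761). The groups did not overlap, but Col4a5 reaches the smallest total of the table, 51 reads, only with its 2i reads. Its direction is thus partly set by its being in the table. Its partners Col4a3 and Col4a4 and its neighbour Col4a6 were not analysed here. Col7a1, the collagen of anchoring fibrils, was at 16.01 and 34.0 in serum ESCs and at 90.3 and 6.79 in 2i ESCs, so that the 2i libraries bracketed the serum libraries. Its log2 fold change of -0.13 ± 1.51 was 0.054 after a correction for GC content and length.

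The 6 fibrillar collagen genes measured had lower levels in serum ESCs, and none passed the test. These collagens form the cross-banded fibrils of connective tissue and cartilage. The median log2 fold change was -1.45 against -0.019 over all genes, and 4 of the 6 genes had both serum values below both 2i values against 20.1% of all genes. The count of 6 held without each library in turn, with medians from -0.99 to -1.94, although the single genes were low and their replicates uneven. The count is partly set by which genes the table holds: Col2a1 (11 and 4 reads in serum ESCs) and Col5a2 (13 and 14 reads) reach its smallest total of 51 reads only with their 2i reads, and Col1a2, Col3a1, Col5a3, Col11a2 and Col24a1 were not analysed here. Col5a2, a chain of type V collagen, was at 13.0 and 13.6 normalized counts in serum ESCs and at 23.9 and 207 in 2i ESCs, a log2 fold change of -2.33 ± 1.30. 2i replicate 2 alone was far higher than the other libraries. Its partner chain Col5a1, the most abundant of the 6, was at 109 and 152 in serum ESCs against 248 and 145 in 2i ESCs, with overlapping groups and a log2 fold change of -0.55 ± 0.58. Col11a1, a cartilage fibril chain, was at 27.0 and 84.6 in serum ESCs and at 94.5 and 220.2 in 2i ESCs (-1.57 ± 0.86).

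The remaining fibrillar genes were near the lower end of what was counted. Col1a1, the main chain of type I collagen, was at 57.0 and 8.75 normalized counts in serum ESCs and at 68.5 and 50.4 in 2i ESCs, with overlapping groups (-1.33 ± 1.16). Col2a1, the collagen of cartilage, was at 11.01 and 3.89 in serum ESCs and at 14.5 and 51.4 in 2i ESCs (-1.90 ± 1.58). Col27a1 was at 46.02 and 23.3 in serum ESCs and at 110.0 and 46.6 in 2i ESCs (-1.10 ± 0.90). The groups of the latter 2 genes did not overlap, but by less than the gap between replicates. Of the 12 fibroblast markers, 3 were measured and 9 were not analysed here, among them Dcn, Lum, Postn and Acta2. The 3 measured markers summed to 288 and 272 normalized counts in serum ESCs and to 447 and 228 in 2i ESCs. Twist1 and Pdgfrb were lower in both serum libraries and Thy1 was higher, and none was at 0. Of the 7 mesoderm markers, 4 were measured, with sums of 292 and 199 in serum ESCs and of 343 and 375 in 2i ESCs. Their log2 fold changes were all negative over the 4 libraries, but T (-0.055 ± 1.62) and Eomes (-0.15 ± 0.61) overlapped between the groups. Gsc and Kdr did not overlap, but Gsc reaches the smallest total of the table only with its 2i reads. The direction of Gsc is thus partly set by its being in the table. Without serum replicate 2, 2i replicate 1 or 2i replicate 2, 1 of the 4 markers was higher in serum ESCs. The part of other cells in the fibrillar collagen levels was not tested.

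Among the fibril-associated, transmembrane and beaded-filament collagens, Col17a1, Col9a2 and Col6a5 stood furthest from 0 relative to their error. Col17a1, the transmembrane collagen of hemidesmosomes in epithelia, was at 23.01 and 29.2 normalized counts in serum ESCs and at 112 and 138 in 2i ESCs. All values of one group were close together and well below those of the other, with a log2 fold change of -2.22 ± 0.75 and an adjusted p-value of 0.761 with limma. Col9a2, a chain of the fibril-associated collagen IX of cartilage, was at 36.0 and 63.2 in serum ESCs and at 144 and 161 in 2i ESCs (-1.65 ± 0.67, limma adjusted p = 0.761). The other chains of collagen IX, Col9a1 and Col9a3, were not analysed here.

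Col6a5, an alpha chain of the beaded-filament collagen VI, had a log2 fold change of 3.99 ± 1.34, the largest of the members at a pseudocount of 1. It was at 74.0 and 70.0 normalized counts in serum ESCs and at 2.08 and 5.82 in 2i ESCs, which were 2 and 6 reads. Col6a5 reaches the smallest total of the table, 51 reads, only with its serum reads. Its direction is thus partly set by its being in the table. The adjusted p-value was 0.761 with limma, while DESeq2 on the whole reads gave a log2 fold change of 4.18 with an adjusted p-value of 0.037. With so few reads in 2i ESCs the fold depended on the pseudocount, from 4.17 at 0.5 to 3.14 at 5 on the log2 scale, and at 0.5 that of Itga8 was larger (4.34). Of the 43-base stretches (the length of a read) of its transcripts, 96.4% occurred in no protein-coding transcript of another gene, the lowest share among the members. Col6a1 and Col6a2, with which such a chain assembles, were not analysed here. Its relative Col6a4 was at 83.0 and 42.8 in serum ESCs and at 114 and 4.85 in 2i ESCs, with 2i libraries on both sides of the serum libraries.

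Of the other 5 genes of this group, Col20a1 was lower in both serum libraries and the others overlapped between the groups. Col22a1 was at 133 and 51.5 normalized counts in serum ESCs and at 121 and 107 in 2i ESCs (-0.45 ± 0.72), and Col13a1 at 68.0 and 72.9 against 89.3 and 38.8 (0.25 ± 0.78). Col16a1, Col20a1 and Col23a1 were low and had log2 fold changes of -0.90 ± 1.33, -1.79 ± 1.67 and -0.13 ± 1.34. Col20a1 was at 12.0 and 2.92 in serum ESCs and at 38.4 and 14.6 in 2i ESCs. Col16a1 and Col20a1 reach the smallest total of the table only with their 2i reads.

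The laminin chains of the embryonic basement membrane were among the most abundant members in both media, and none passed the test for a difference. Per kilobase of exon, Lamc1, the gamma chain shared by laminin-111 and laminin-511, was second of all 46 members at a mean of 578 normalized counts per kilobase, behind Itgb1 at 693. Itga6 at 342, Lama5 at 226 and Lama1 at 172 came next. Lamc1 and Itga6 were each above the next gene in all 4 libraries, whereas Itgb1 was above Lamc1 in 3 and Lama5 above Lama1 in 3, and Lama1 above Col18a1, the next at 168, in 2. Lama1, Lama5, Lamb1, Lamb2 and Lamc1 together made up 91.0% and 93.7% of the laminin signal per kilobase in serum ESCs, and 90.8% and 83.5% in 2i ESCs.

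The alpha chains leaned in opposite directions. Lama1 was at 1384 and 2219 normalized counts in serum ESCs and at 1518 and 1433 in 2i ESCs, with overlapping groups and a log2 fold change of 0.25 ± 0.45. Lama5 was at 1961 and 2239 in serum ESCs and at 3441 and 2685 in 2i ESCs, lower in both serum libraries (-0.54 ± 0.43, limma adjusted p = 0.778). The share of Lama1 in the sum of both, per kilobase, was 45.8% and 54.3% in serum ESCs and 34.6% and 39.0% in 2i ESCs. A ratio within a library does not depend on its size factor, and both serum libraries were above both 2i libraries. With 2 against 2 libraries an exact permutation test has 3 splits and gives no two-sided p-value under 0.333, so this and the other ratios are given without a test, and they were formed after the single values had been seen. Lama3, the epithelial chain of laminin-332, was at 228 and 66.1 in serum ESCs and at 157 and 229.9 in 2i ESCs (-0.62 ± 0.74). Lama4, found in vessel walls, was low, at 8.004 and 25.3 against 31.1 and 42.7 (-1.28 ± 1.21). It reaches the smallest total of the table only with its 2i reads.

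Of the beta chains, Lamb1 tended upwards in serum ESCs, with its sign kept without each library in turn and serum replicate 2 far the highest. It was at 735 and 1491 normalized counts in serum ESCs and at 769 and 502 in 2i ESCs, with overlapping groups (0.75 ± 0.53). Lamb2 was at 477 and 348 in serum ESCs and at 632 and 405 in 2i ESCs (-0.31 ± 0.48). The share of Lamb1 in the sum of both, per kilobase, was 46.6% and 70.8% in serum ESCs and 40.8% and 41.2% in 2i ESCs. Its height depends on the length used. Lamb1 has 9917 exon bases but 5964 distinct 43-base stretches in its protein-coding transcripts, against 5624 and 5582 for Lamb2. The serum libraries were above, but 24.2 percentage points apart from each other. Lamb3, the beta chain of laminin-332, was at 36.0 and 21.4 in serum ESCs and at 12.5 and 19.4 in 2i ESCs, so that the groups did not overlap by a margin of few reads (0.80 ± 1.21). It reaches the smallest total of the table only with its serum reads.

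The gamma chain gene Lamc1 was at 4677 and 5719 normalized counts in serum ESCs and at 5580 and 3144 in 2i ESCs, and the groups overlapped (0.30 ± 0.50). The sign of the log2 fold change of Lama1 and Lama3 turned without serum replicate 2, that of Lamb2 without 2i replicate 1, and that of Lamc1 without 2i replicate 2.

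Type IV collagen and laminin-111 are also products of primitive endoderm, the epithelium that lines the epiblast. Of 12 primitive endoderm markers, 7 were measured, and Sox7, Foxa2, Dab2, Amn and Afp were not analysed here. Their sums were 1830 and 2375 normalized counts in serum ESCs and 2215 and 4586 in 2i ESCs, mostly from Sparc. Of the 7, 5 had lower levels in serum ESCs and 2 higher, with a median log2 fold change of -2.02. Without 1 library each the median was smaller in size, from -1.51 to -0.96. Gata4 was at 13.0 and 42.8 in serum ESCs and at 152 and 169 in 2i ESCs, and Gata6 and Sox17 were likewise lower in both serum libraries. Gata6 and Sox17 reach the smallest total of the table, 51 reads, only with their 2i reads. Cubn reaches it only with its serum reads. Their directions and the median are thus partly set by these genes being in the table. Hnf4a, Sparc, Pdgfra and Cubn overlapped between the groups, Pdgfra and Cubn with positive log2 fold changes (0.13 ± 0.90 and 2.47 ± 2.81), and Cubn was at 0 in 2i replicate 2. Trophoblast markers, 5 of 10 measured and none at 0, summed to 594 and 357 in serum ESCs and to 2668 and 4024 in 2i ESCs. A different gene made up most of each 2i sum, Elf5 at 2215 in 2i replicate 1 against 85.4 in replicate 2, and Krt8 at 3614 in 2i replicate 2 against 83.0 in replicate 1. Of the 5, 4 had lower levels in serum ESCs and Gata3 a higher one, and without 2i replicate 1 the median turned from -1.30 to 0.19. Gata3 reaches the smallest total of the table only with its serum reads. The part of such cells in the matrix gene levels was not tested.

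**Figure D3:**
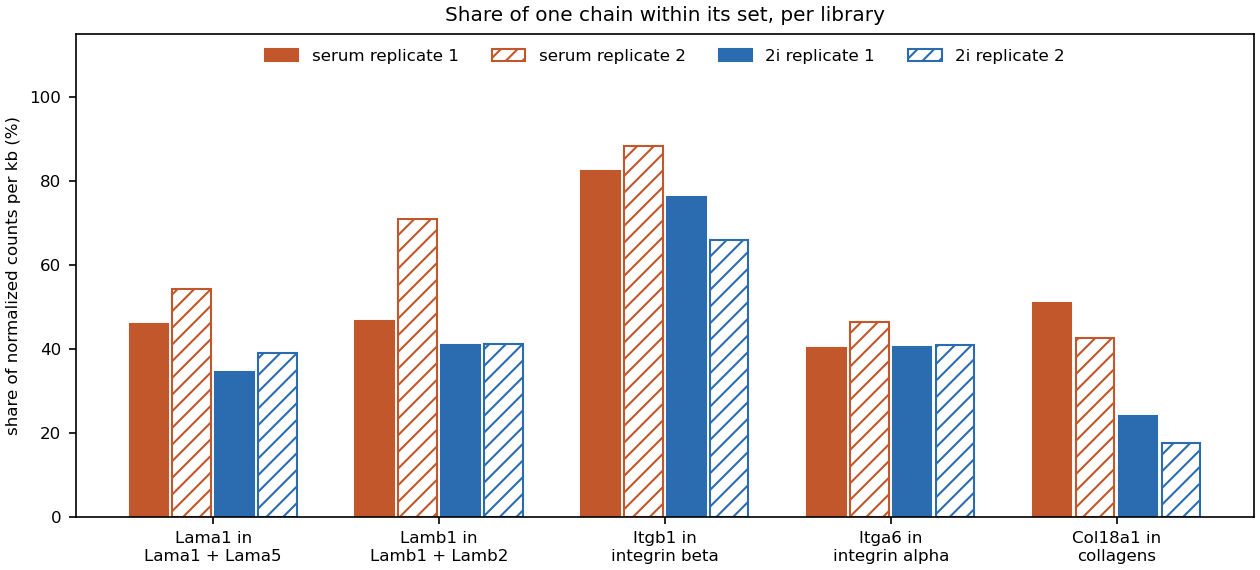
Share of one chain in the summed normalized counts per kilobase of its set, in percent, for each library. The shares of Lama1, Lamb1, Itgb1 and Col18a1 are higher in both serum libraries than in both 2i libraries, and that of Itga6 overlaps.

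Among the integrin alpha chains, the laminin receptor chain Itga6 prevailed in both media. Itga6 was at 2292 and 4604 normalized counts in serum ESCs and at 3178 and 2272 in 2i ESCs, with overlapping groups (0.27 ± 0.53), a sign that turned without serum replicate 2. It took 40.1% and 46.4% of the alpha chain signal per kilobase in serum ESCs and 40.4% and 40.8% in 2i ESCs. Itga3, another laminin receptor chain, was at 467 and 1295 in serum ESCs and at 671 and 955 in 2i ESCs. Its log2 fold change of -0.041 ± 0.60 was positive with edgeR (0.10), with DESeq2 (0.12) and after the GC content and length correction (0.11). Itga7, the laminin receptor chain of muscle, was at 30.0 and 18.5 in serum ESCs and at 15.6 and 66.0 in 2i ESCs (-0.44 ± 1.19).

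Of the chains that bind RGD ligands, Itgav and Itga5 were well expressed. Itgav, which pairs with several beta chains as a vitronectin receptor, was at 499 and 753 normalized counts in serum ESCs and at 797 and 826 in 2i ESCs. Both serum values were lower, the second by little (-0.40 ± 0.45). Itga5, the fibronectin receptor chain, was at 611 and 711 in serum ESCs and at 897 and 241 in 2i ESCs, so that the 2i libraries lay on both sides (0.50 ± 0.68). Its ligand Fn1 had the same spread in 2i ESCs, at 15947 and 4411 against 7617 and 6750 in serum ESCs (-0.23 ± 0.71). Itga8, the nephronectin receptor chain of the kidney, was at 48.0 and 80.7 in serum ESCs and at 18.7 and 0 in 2i ESCs. Its log2 fold change of 3.83 ± 1.83 fell to 1.68 without the library at 0, 2i replicate 2. Itga8 reaches the smallest total of the table only with its serum reads.

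Itga9 was the integrin gene with the clearest difference. It encodes the alpha chain of a receptor for tenascin-C, osteopontin and VCAM-1. Itga9 (ENSMUSG00000039115) was at 303 and 697 normalized counts in serum ESCs and at 152 and 79.5 in 2i ESCs. All serum values were higher, with a log2 fold change of 2.06 ± 0.64 (SE) and an adjusted p-value of 0.761 with limma. Leaving out any one library gave log2 fold changes between 1.46 and 2.65. Spp1, which encodes osteopontin, leaned the other way, at 2909 and 3157 in serum ESCs and at 3387 and 14737 in 2i ESCs. Itga4, the relative of Itga9, was at 94.0 and 17.5 in serum ESCs and at 145 and 18.4 in 2i ESCs, so that replicates of a group differed several-fold. Of its exon bases, 8.04% overlap Cerkl on the opposite strand.

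Replicate 2i libraries were furthest apart at Itga1, the collagen receptor chain. It was at 78.0 and 39.9 normalized counts in serum ESCs and at 491 and 8.73 in 2i ESCs, so that on the log2 scale 2i replicate 2 stood at -5.66 relative to replicate 1, around a difference between groups of -0.28 ± 1.77. An 8-fold gap between 2i replicates was seen at 7 members against 9.09% of all genes. Chains typical of leukocytes overlapped between the groups. Itgam was at 110.1 and 34.0 in serum ESCs and at 40.5 and 2.91 in 2i ESCs (2.29 ± 1.49). Itgal and Itgae had log2 fold changes of -0.92 ± 1.06 and -0.45 ± 0.72. Itgb7, which pairs with Itgae, was at 122 and 161 in serum ESCs and at 71.6 and 204 in 2i ESCs (0.21 ± 0.70), and its mean of 50.9 normalized counts per kilobase was above that of Col4a2. Itgb2, the beta partner of Itgam and Itgal, was not analysed here.

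Itgb1, the beta chain shared by most matrix receptors, had the highest level per kilobase of the 46 genes. It was at 2517 and 4125 normalized counts in serum ESCs and at 2311 and 2353 in 2i ESCs. Both serum values were higher, the first by less than the gap between the serum replicates (0.47 ± 0.46, limma adjusted p = 0.814). Itgb5, a partner of Itgav, was at 202 and 137 in serum ESCs and at 280 and 641 in 2i ESCs, lower in both serum libraries (-1.34 ± 0.60, limma adjusted p = 0.761). Itgb3, another partner of Itgav, was at 61.0 and 150 in serum ESCs and at 213 and 136 in 2i ESCs (-0.82 ± 0.69). Itgb4, which joins Itga6 in hemidesmosomes, was at 119 and 60.3 in serum ESCs and at 218 and 72.8 in 2i ESCs (-0.57 ± 0.79).

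Itgb1 took 82.4% and 88.3% of the beta chain signal per kilobase in serum ESCs and 76.2% and 65.9% in 2i ESCs. Both serum libraries were above both 2i libraries. The summed level per kilobase overlapped between the media in all 3 families. It was 359 and 766 normalized counts per kilobase for the collagens in serum ESCs and 472 and 288 in 2i ESCs. It was 1145 and 1422 for the laminins in serum ESCs against 1460 and 1064 in 2i ESCs, and 1382 and 2245 for the integrins against 1615 and 1492. Col18a1, Col4a1 and Col4a2 together made up 70.0% and 85.9% of the collagen sum in serum ESCs and 51.6% and 31.0% in 2i ESCs.

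Genes that act with these families were compared by 5 lists. In the list of integrin adhesion adaptors and kinases, which link the beta chain to actin, 34 genes were measured (of 37 listed). Of the 34, 24 had higher levels in serum ESCs against 49.2% of all genes. The other 10 had higher levels in 2i ESCs against 50.8% of all genes. The median log2 fold change of the list was 0.31 against -0.019 over all genes, and 0.11 without 2i replicate 2. With limma 0 of these genes were called in either direction, and 1 in each direction had an unadjusted p-value under 0.05. Over all genes that p-value was seen for 2.76% with higher levels in serum ESCs and 3.20% with higher levels in 2i ESCs. Tns3, a tensin, was at 4502 and 4693 normalized counts in serum ESCs and at 2062 and 1372 in 2i ESCs (1.45 ± 0.45, limma adjusted p = 0.761). The kindlins went apart. Fermt3, the kindlin of blood cells, was at 40.0 and 18.5 in serum ESCs and at 162 and 287 in 2i ESCs, with a log2 fold change of -2.94 ± 0.76, an adjusted p-value of 0.761 with limma and of 0.028 with DESeq2. Fermt2, the kindlin of most adherent cells, was at 1562 and 2342 in serum ESCs and at 1340 and 784 in 2i ESCs (0.90 ± 0.49). The groups did not overlap for 10 genes higher in serum ESCs, among them Tln1, Flna, Actn4, Ptk2 and Rap1b, and for 4 genes higher in 2i ESCs, which were Fermt3, Parvg, Nedd9 and Src, against 19.5% and 20.1% of all genes. Parvg and Nedd9 reach the smallest total of the table only with their 2i reads, so their direction is partly set beforehand.

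In the other 4 lists more genes had lower than higher levels in serum ESCs over the 4 libraries, and limma called 0 genes of any. Over all genes 50.8% had lower levels in serum ESCs. With limma an unadjusted p-value under 0.05 was seen for 2.76% of all genes with higher and 3.20% with lower levels there. Of the 23 collagen processing enzymes and chaperones measured (of 30 listed), 19 had lower levels in serum ESCs, with a median of -0.62 that was -0.27 without 2i replicate 1, and 0 had an unadjusted p-value under 0.05. P4ha1 and P4ha2, the catalytic chains of the prolyl hydroxylase that stabilises the collagen helix, were lower in both serum libraries, P4ha1 at 415 and 522 normalized counts against 779 and 996 in 2i ESCs (-0.92 ± 0.44). Serpinh1, the collagen chaperone, overlapped at 1273 and 464 against 1113 and 968. In this list Loxl1, Loxl3 and Adamts2 reach the smallest total of the table only with their 2i reads, which partly sets their direction. Of the 19 proteases and inhibitors measured (of 24 listed), 13 were lower in serum ESCs with a median of -0.91 that was -0.47 without 2i replicate 1, and 0 had an unadjusted p-value under 0.05. The inhibitor Timp1 was at 273 and 195 in serum ESCs and at 410 and 531 in 2i ESCs (-1.01 ± 0.48). Mmp19, Mmp23 and Plat reach the smallest total of the table only with their 2i reads, which partly sets their direction.

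Of the 18 other matrix receptors measured (of 19 listed), 13 were lower in serum ESCs against 50.8% of all genes, with a median of -0.57. An unadjusted p-value under 0.05 was seen for 3, all lower in serum ESCs, against 3.20% of all genes. These were syndecans, heparan sulfate proteoglycans of the cell surface. Sdc4, the abundant one, was at 1757 and 1137 normalized counts in serum ESCs and at 3277 and 5070 in 2i ESCs (-1.53 ± 0.48, limma adjusted p = 0.761). Sdc3 and Sdc2 had log2 fold changes of -2.82 ± 0.99 and -1.64 ± 0.66, whereas Sdc1 overlapped between the groups (0.37 ± 0.52). Of the 19 basement membrane and matrix glycoproteins measured (of 30 listed), 14 were lower in serum ESCs with a median of -0.30. Of these, 2, Efemp2 and Tinagl1, had an unadjusted p-value under 0.05, against 3.20% of all genes in that direction. Tinagl1, Fbn2 and Fbln2 reach the smallest total of the table only with their 2i reads. The direction of these genes, and so the count of the list, is partly set by their being in the table. The direction of this list rests on 2i replicate 1, since without that library 11 of the 19 had the higher level in serum ESCs and the median was 0.30. Leaving out 2i replicate 2 instead gave -1.15. The partners of laminin in the basement membrane did not share a direction. Nid1 was at 2071 and 2333 in serum ESCs and at 2477 and 4701 in 2i ESCs (-0.63 ± 0.49), whereas Nid2 (0.18 ± 0.56), Hspg2, the perlecan gene (-0.14 ± 0.85), and Agrn (-0.27 ± 0.53) overlapped between the groups.

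**Figure D4:**
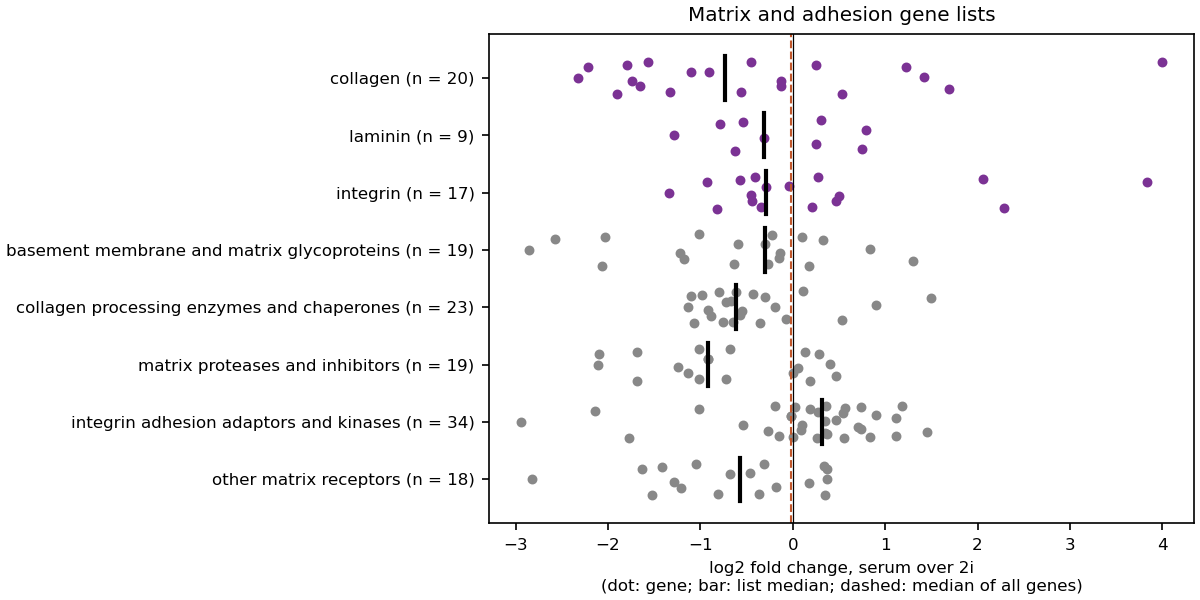
Log2 fold change, serum over 2i, of each measured gene in the 3 families (purple) and in 5 lists of matrix and adhesion genes (grey); black bars are list medians and the dashed line the median of all genes. The adaptors and kinases have a median of 0.31, and the other lists medians from -0.91 to -0.28.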

How the data were processed

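RNA from sorted late G1-phase ESCs was sequenced in 4 libraries, 2 per medium. The authors removed ribosomal RNA, primed at random positions, used Bowtie to align the reads to mm9 and MMSeq to estimate expression. The deposited signal is each gene's count over a size factor that DESeq2 gave the library (normalized counts). In each library 100% of the values were whole multiples of 1 step (within 0.01 of a read), so whole reads were recovered. The smallest total over the libraries was 51 reads. Names, positions, starts and exon lengths came from GENCODE vM1, on the same build, which held 14462 of the 14533 genes.

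Every gene was tested with limma 3.58.1 (R 4.3.3) on log2(normalized count + 1), a scale that understates changes of low genes, with a variance trend and Benjamini-Hochberg adjustment over all 14533 genes. No further filter was applied. A call needed a 2-fold change and an adjusted p-value under 0.05. The prior degrees of freedom were 4.28. Alternatives included edgeR 4.0.16 and DESeq2 1.42.0 on the whole reads. The series text calls the replicates biological, but the labels do not say which cultures they came from, and p-values measure only the spread between these samples. Shares and ratios used normalized counts divided by merged exon length, so their height and the ranks per kilobase depend on that length.

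Named in full were members with a mean of at least 50 and groups that did not overlap, and the chains of laminin-111 and laminin-511, type IV and fibrillar collagens and the main integrins. Other members and genes of the lists were named after their values had been seen. The members and lists were chosen with earlier results of these data known. 1 laminin gene is counted among the members but its values are not reported here. The fit was tested on simulated data.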

Additional observations from a re-analysis of the deposited data

How the results depend on the processing

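The median of the collagens stayed negative under all 16 alternatives, and 0 members were called higher in 2i ESCs under any of them. DESeq2 on the whole reads called 1 member, Col6a5, higher in serum ESCs (log2 fold change 4.18), and the other alternatives called 0. Col6a5 reaches the smallest total of the table only with its serum reads. Without 1 library each, the median log2 fold change ranged from -0.44 to 0.0073 for the laminins and from -0.11 to 0.22 for the integrins, positive in both only without 2i replicate 1. The collagen median ranged from -0.95 to -0.43, and 12 to 17 of 20 collagens and 6 of 6 fibrillar collagens were lower in serum ESCs, a count added after seeing the data. Of the 20 collagens, 5 reach the smallest total of the table only with their 2i reads, among them the fibrillar Col2a1 and Col5a2. Leaving out a library does not remove that selection. Of the 5 lists of matrix and adhesion genes, the median turned for the basement membrane and matrix glycoproteins alone (-1.15 to 0.30), also added after seeing the data. Apart from leaving out a library, the sign turned for Itga3 (0.11 with the GC content and length correction, 0.10 with edgeR, 0.12 with DESeq2) and for Col7a1 (0.054 with that correction). Without 1 library each, it turned for 19 members and held for 27. The ranges were -0.34 to 0.84 for Col13a1, -1.84 to 0.028 for Col16a1, -1.13 to 0.22 for Col22a1, -1.90 to 1.64 for Col23a1, -0.42 to 1.49 for Col4a2, -0.93 to 3.37 for Col6a4 and -1.90 to 1.65 for Col7a1. They were -3.11 to 2.55 for Itga1, -0.78 to 0.69 for Itga3, -1.80 to 1.11 for Itga4, -0.44 to 1.45 for Itga5, -0.23 to 0.78 for Itga6, -1.45 to 0.57 for Itga7, -1.35 to 0.22 for Itgb4 and -0.53 to 0.96 for Itgb7. They were -0.092 to 0.59 for Lama1, -1.51 to 0.26 for Lama3, -0.63 to 0.0073 for Lamb2 and -0.11 to 0.72 for Lamc1. The causes were not tested. In these fits the lone library of a group is assumed to vary like the pair of the other group. Upper quartile scaling moved the median of all genes to -0.14, and the family medians by a like amount.

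The labels number the replicates alike in both groups, and the replicate gaps of serum and 2i ESCs correlated across all genes at r = 0.46, and across the 46 members at 0.085, but 2 pairs do not show that the numbers mark shared cultures. With the replicate block limma called 0.131% of the 14533 genes higher in serum ESCs and 0.764% higher in 2i ESCs, against 0% and 0.0138% without it, and 0 members in either direction. Over all genes DESeq2 called 65 and 175, and edgeR 0 and 0.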
